A study of Mus musculus with 6 samples.

Results

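Cytosolic ribosomal protein genes were compared between Treg cells with and without Batf. They were taken as the genes whose symbol begins with Rpl, Rps or Rplp followed by a digit, leaving out the Rps6 kinases (6 genes) and symbols marked as pseudogenes (1 gene), and probe sets annotated to more than 1 gene. This gave 49 of the 18193 genes measured, on 104 of the 45101 probe sets of a 3' expression array. By textbook roles, 20 encode proteins of the small subunit, 20 of the large subunit, 2 of the stalk (Rplp0 and Rplp2) and 6 are paralogs or relatives (Rpl3l, Rpl7l1, Rpl22l1, Rpl39l, Rps4l and Rps27l). Rps19bp1 encodes a protein that binds Rps19 and is not itself a ribosomal protein, so the symbol rule admits it against the name of the group. Of the genes, 23 were measured by several probe sets, at most 6, and 26 by 1.

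The cells were CD4+ hCD2+ cells isolated ex vivo, untreated, from spleen and lymph node of the C57BL/6 strain with the FoxP3hCD2 reporter, either Batf+/+ (3 arrays) or Batf-/- (3 arrays). Both genotypes carry the reporter, in which human CD2 marks cells that express Foxp3. The labels give no age, do not say how many mice were used or whether they were pooled, and do not say whether the Batf deletion reaches every cell of the mouse. They call the populations triplicates and do not tie each to its own mouse. The p-values thus rest on the scatter among these arrays, part of which may be technical. Batf, an AP-1 type transcription factor and the deleted gene, had values of -0.13, 0 and 0.14 in Batf+/+ and -3.13, -3.16 and -2.37 in Batf-/- (log2 difference -2.89 ± 0.19 SE, adjusted p = 0.000202 by limma). Every value is a log2 value set against the middle of the 3 Batf+/+ arrays for its probe set, so 0 is the middle Batf+/+ array and no absolute level remains. The cell type label could therefore not be checked against the level of defining markers, and genes cannot be ranked by abundance.

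A cytosolic ribosome joins a small subunit, which decodes the mRNA, to a large subunit, which forms the peptide bond, and each subunit is an assembly of ribosomal RNA with many proteins, most present in 1 copy. Ribosomal protein mRNAs are among the most abundant in lymphocytes and are known for being controlled together. Most of them begin with a 5' terminal oligopyrimidine tract, a C followed by a run of C and T (U in the RNA), through which mTOR signalling and the RNA-binding protein Larp1 control their translation. That control acts on translation, which an array of total RNA does not measure.

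The tract was looked for in the RefSeq promoters (build GRCm38.p6), which matched 43 of the 49 genes. In 60 bases around the annotated start (35 before it and 25 from it on), written 5' to 3' on the gene's own strand, capitals mark the longest run of C and T, and 8 genes that recur in the results are shown because they cover the range from a long run to a short one:
Rps6: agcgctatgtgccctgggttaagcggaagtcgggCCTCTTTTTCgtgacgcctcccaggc
Rps18: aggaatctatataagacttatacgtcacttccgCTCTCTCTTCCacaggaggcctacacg
Rps27: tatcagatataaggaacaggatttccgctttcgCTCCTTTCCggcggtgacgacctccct
Rplp2: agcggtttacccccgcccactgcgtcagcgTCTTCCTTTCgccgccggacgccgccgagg
Rpl38: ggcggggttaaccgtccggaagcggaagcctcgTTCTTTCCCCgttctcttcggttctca
Rpl35: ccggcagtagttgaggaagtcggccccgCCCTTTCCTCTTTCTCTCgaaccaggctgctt
Rpl22l1: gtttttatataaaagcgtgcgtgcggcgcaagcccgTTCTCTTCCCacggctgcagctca
Rpl3l: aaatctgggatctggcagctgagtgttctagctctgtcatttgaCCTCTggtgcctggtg
The windows are chr4:86857343-86857402 (minus strand) for Rps6, chr17:33955641-33955700 (minus strand) for Rps18, chr3:90213624-90213683 (minus strand) for Rps27, chr7:141447616-141447675 (plus strand) for Rplp2, chr11:114668545-114668604 (plus strand) for Rpl38, chr2:39005107-39005166 (minus strand) for Rpl35, chr3:28805473-28805532 (plus strand) for Rpl22l1 and chr17:24727791-24727850 (plus strand) for Rpl3l.

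Rpl35, a large subunit protein, had a run of 18 bases across its start, and Rps6, Rps18, Rps27, Rplp2 and Rpl38 had runs of 9 to 11 bases that begin within 5 bases before it. Rpl22l1, the paralog of Rpl22, had a run of 10 bases just after its start. Rpl3l, the relative of Rpl3 known from striated muscle, had no run longer than 5 bases. Between 40 bases before and 25 bases from the start, the longest run had a median length of 9 bases in the 43 matched genes and of 6 bases in all 27025 promoters. A run of at least 6 bases was present in 33 of the 43 (76.7%) against 53.6% of all promoters. Short motifs were searched on both strands of the whole promoter window (250 bases before to 50 after the start). CCGGAAG, the core that ETS factors bind, was in 20 of 43 (46.5%), among them Rps6, Rps18, Rps25, Rpl11, Rpl35 and Rplp2, against 9.12% of all promoters. CTTTCC, which overlaps many C and T runs, was in 19 (44.2%) against 26.3%, and TATAA was in 13 (30.2%) against 25.5%. TGANTCA, the AP-1 element, was in 1 (2.33%), Rpl22, against 7.93%. A run or a match is a description of the letters in its window, and no run was shown to be the 5' terminal tract of an mRNA. The matched members do not lie in 1 place: with coordinates known, the genes are on 15 chromosomes.

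No ribosomal protein gene was called different between the genotypes by the test used. At the share of all genes called, given next, a group of this size would hold few called genes or none. By limma with Benjamini-Hochberg adjustment over all 18193 genes, 0 of 49 passed an adjusted p of 0.05 and 0 passed an unadjusted p of 0.05, against 1.14% of all genes called (0.83% lower and 0.313% higher in Batf-/-) and 7.69% at the unadjusted threshold (4.44% lower and 3.25% higher). The smallest adjusted p was 0.779, for Rps6. For members of low scatter the test is limited, because limma draws their SDs up towards 0.11. The smallest SE of a member was 0.068 (Rps29). A small difference could thus not pass, however steady between arrays, and counts of 0 do not show that members changed less than other genes. With every probe set as a row, 0 of 104 were called and 0 had an unadjusted p under 0.05, where 0.531% of all probe sets were called (0.402% lower and 0.129% higher) and 6.3% passed unadjusted (3.42% lower and 2.88% higher). The differences, Batf-/- minus Batf+/+, ran from -0.21 (Rps4l) to 0.18 (Rps25) on the log2 scale. Their median was 0.026 (all genes 0.0047), and 32 of 49 lay above 0 (65.3%, against 51.8% of all genes). Without the first Batf-/- array the members' median was 0.015 and that of all genes 0.021, so the order of the medians turned. Because the samples are bulk populations, fewer cells of a type and less RNA per cell cannot be told apart in any of these values, and a change shared by all transcripts of a cell does not show after normalization of the arrays to each other.

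**Figure D1:**
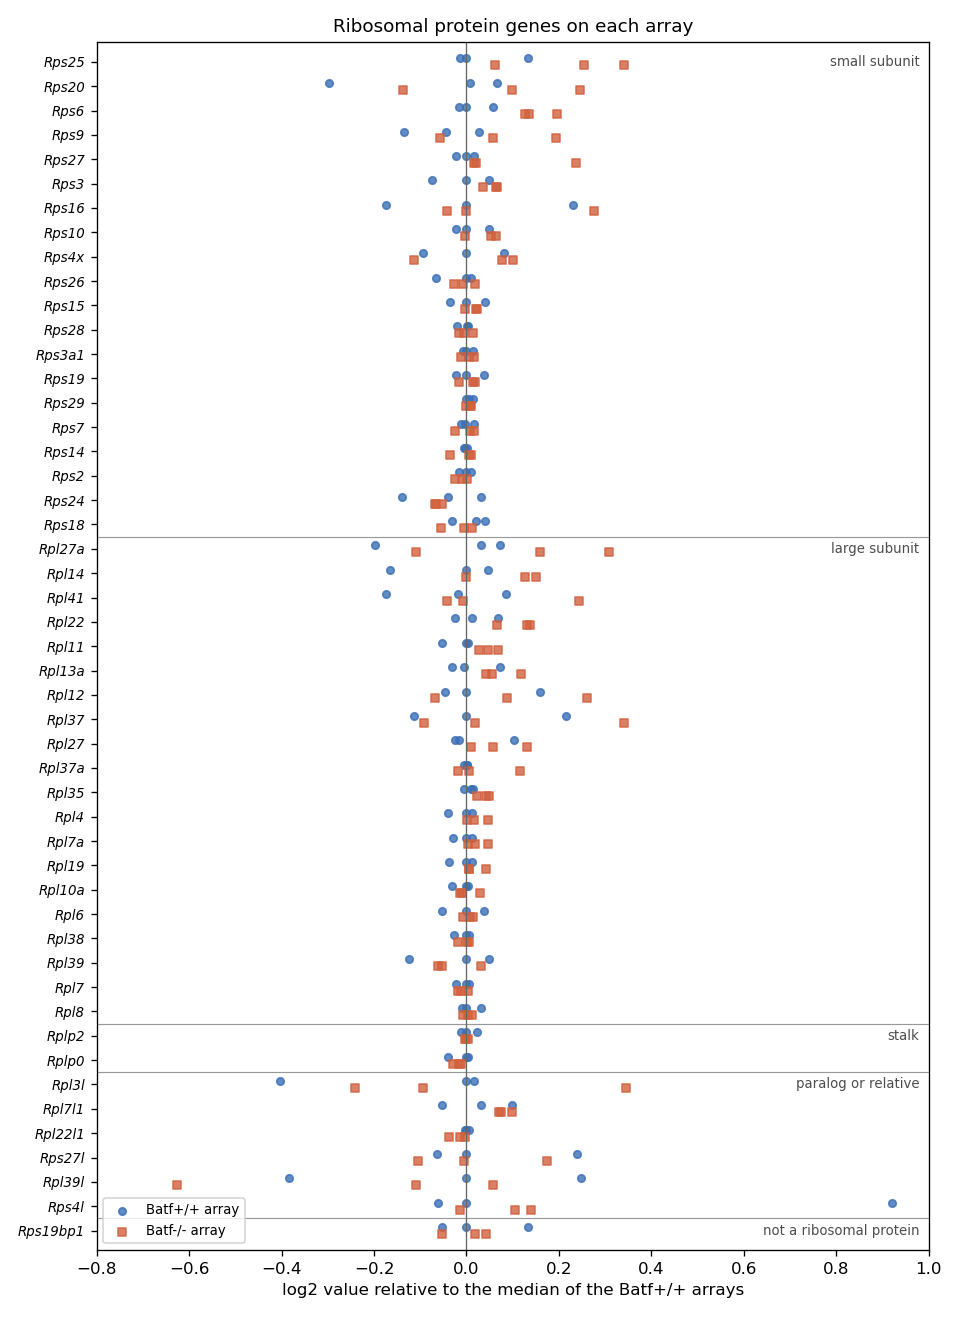
Value of each of the 49 genes on each array (x axis, log2 relative to the middle Batf+/+ array; circles Batf+/+, squares Batf-/-), grouped by role and ordered by the difference between genotypes. Most genes lie close to 0 on all 6 arrays, and the widest scatter is that of Rps4l, Rpl39l and Rpl3l.

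The intervals bound the size of a change in these values, gene by gene and without adjustment for the number of genes. The 95% interval of the difference lay within 1.2-fold in either direction for 34 of 49 genes (39.8% of all genes), and within 1.5-fold for 47 (95.3% of all genes), the exceptions being Rpl39l and Rps4l. It lay within 2-fold for all 49 (99.0% of all genes), and the outermost bounds were -0.72 (Rps4l) and 0.51 (Rpl3l). These intervals are wider than the arrays' own scatter for many members. limma draws each gene's SD towards a value of 0.11 common to all genes (prior degrees of freedom 4.84), so Rps29, with an SD of 0.0066 between arrays of a genotype, still had an SE of 0.068.

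**Figure D2:**
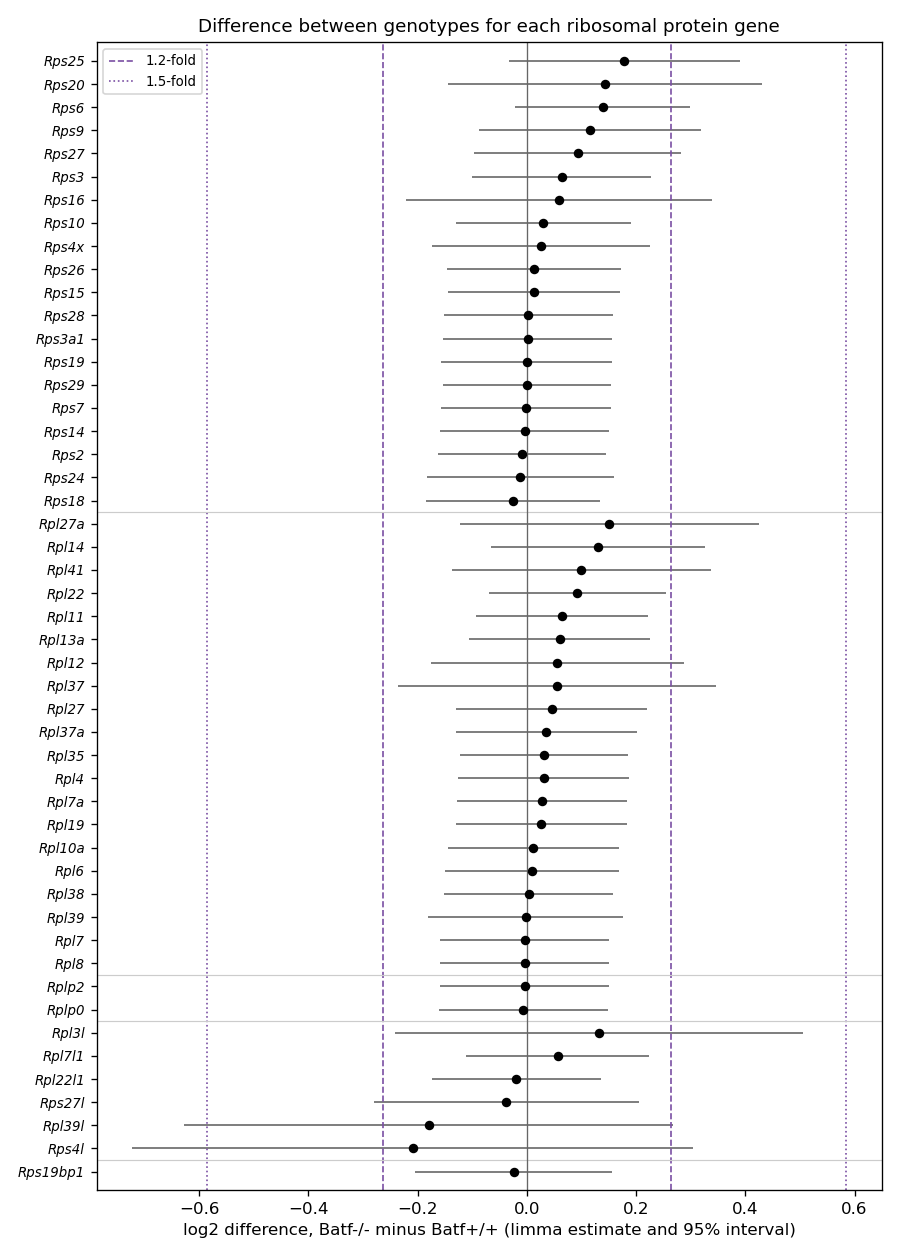
Difference between genotypes (x axis, log2, Batf-/- minus Batf+/+) of each gene, as the limma estimate (point) with its 95% interval (line); the vertical lines mark 1.2-fold and 1.5-fold in either direction. Every interval includes 0, and those of Rpl39l and Rps4l pass the 1.5-fold line on the low side.

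The 20 small subunit genes had a median difference of 0.013, and 13 of them lay above 0, with a range from -0.025 to 0.18. Rps6, the small subunit protein phosphorylated by the S6 kinases downstream of mTOR, was 0.058, 0 and -0.016 in the Batf+/+ arrays and 0.14, 0.20 and 0.13 in the Batf-/- arrays. All 3 Batf-/- values lay above all 3 Batf+/+ values, and the estimate was 0.14 ± 0.071 (SE), or 1.10-fold, with an interval of -0.022 to 0.30 and an adjusted p of 0.779 by limma. The separation holds for the mean of its 2 probe sets and for neither alone: one was -0.13, 0 and 0.16 in Batf+/+ and 0.24, 0.081 and 0.20 in Batf-/-, the other 0.25, 0 and -0.19 in Batf+/+ and 0.033, 0.31 and 0.050 in Batf-/-. Their opposite deviations on Batf+/+ arrays 1 and 3 largely cancel in the mean. Rps6 was 1 of only 3 members whose arrays did not overlap between genotypes, with Rpl11 and Rpl35, and all 3 were higher in Batf-/-. That is 3 of 49 genes in this direction and 0 in the other, where 12% of all genes did not overlap, 5.5% being higher and 6.55% lower.

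Rps25, which lies in the head of the small subunit and takes part in initiation at internal ribosome entry sites, had the highest difference of the group, 0.18 ± 0.093 (SE), 1.13-fold, adjusted p = 0.791 by limma. Its values were 0, 0.13 and -0.014 in Batf+/+ and 0.34, 0.25 and 0.061 in Batf-/-, so the third Batf-/- array lay below the highest Batf+/+ array. Rps20, a protein of the small subunit head, had a difference of 0.14 ± 0.13 (SE). It was 0.066, 0.0086 and -0.30 in Batf+/+ and 0.25, 0.098 and -0.14 in Batf-/-, and the arrays numbered 3 were the lowest of each genotype. Rps27, a zinc-binding protein, was 0, 0.017 and -0.022 in Batf+/+ and 0.24, 0.017 and 0.021 in Batf-/-. Its difference of 0.093 ± 0.084 (SE) therefore came with 1 Batf-/- array standing above the other 5. Rps3, a protein at the mRNA entry site that also has roles in DNA repair and NF-kB signalling, was -0.075, 0.048 and 0 in Batf+/+ and 0.065, 0.036 and 0.063 in Batf-/-, with overlapping groups and a difference of 0.064 ± 0.072 (SE).

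Several small subunit genes lay closer to 0 than this. Rps19 and Rps14, whose loss of 1 copy is known from Diamond-Blackfan anaemia and the 5q- syndrome, had differences of -0.000093 ± 0.069 and -0.0042 ± 0.068 (SE). Rps29, a small zinc-binding protein of the head, had the least scatter of all members: it was 0.014, 0.0049 and 0 in Batf+/+ and -0.0012, 0.0084 and 0.0099 in Batf-/-. Its difference was -0.00060 ± 0.068 (SE), and the groups overlapped. Rps18, a head protein near the contacts between the subunits, had the lowest difference of the small subunit, -0.025 ± 0.071 (SE), with 0.040, -0.031 and 0.020 in Batf+/+ against -0.0061, -0.055 and 0.013 in Batf-/-. Its 6 probe sets ran from -0.14 to 0.035, and the one at -0.14 was the 1 ribosomal protein probe set of 104 that was lower in Batf-/- without overlap (5.69% of all probe sets), against 6 that were higher (5.45% of all probe sets, 11.1% in both directions). Those 6 belong to Rpl11, Rpl22 (2 probe sets), Rpl35, Rps29 and Rps9. All 6 have a suffix for shared sequence in their name, a limit described below, and the Rps18 probe set at -0.14 has none. Probe sets, and Rps9 and Rps24, were named after their values were seen.

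In the large subunit, 17 of 20 genes lay above 0 and the median difference was 0.034, with a range from -0.0043 to 0.15. Rpl27a had the highest, 0.15 ± 0.12 (SE), with -0.20, 0.031 and 0.072 in Batf+/+ and -0.11, 0.31 and 0.16 in Batf-/-. The arrays numbered 1 were the lowest of both genotypes for this gene, and the groups overlapped. Rpl14 was -0.16, 0 and 0.047 in Batf+/+ and 0.13, -0.0021 and 0.15 in Batf-/-, a difference of 0.13 ± 0.086 (SE). Neither passed the test (adjusted p = 0.958 and 0.908 by limma).

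Rpl11 and Rpl35 were the large subunit genes without overlap. Rpl11, which with Rpl5 and the 5S RNA holds Mdm2 when ribosome assembly is disturbed, was 0, -0.053 and 0.0029 in Batf+/+ and 0.047, 0.027 and 0.069 in Batf-/-, a difference of 0.064 ± 0.069 (SE), adjusted p = 0.997 by limma. Rpl35, a protein near the peptide exit tunnel and the gene with the 18-base run shown above, was -0.0053, 0.015 and 0.011 in Batf+/+ and 0.049, 0.023 and 0.043 in Batf-/-. Its difference was 0.032 ± 0.068 (SE), 1.02-fold, and each of its 6 probe sets was above 0, from 0.017 to 0.067, while 1 of the 6 separated the genotypes on its own. Rpl35 was named after its values were seen. The separation of both genes was small in size, 1.05-fold and 1.02-fold.

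Rpl22, an RNA-binding protein needed for the development of alpha beta T cells, was -0.025, 0.012 and 0.069 in Batf+/+ and 0.13, 0.066 and 0.14 in Batf-/-. The second Batf-/- array was just under the highest Batf+/+ array, and the difference was 0.093 ± 0.072 (SE), adjusted p = 0.949 by limma. Its 3 probe sets lay at 0.032 to 0.16. Rpl41, the smallest ribosomal protein, had a difference of 0.10 ± 0.10 (SE), with -0.019, 0.086 and -0.18 in Batf+/+ and 0.24, -0.0086 and -0.043 in Batf-/-, so 1 Batf-/- array was high and the rest overlapped. Rpl13a, known as a part of the interferon-gamma controlled GAIT complex, was -0.0046, -0.032 and 0.073 in Batf+/+ and 0.055, 0.043 and 0.12 in Batf-/-, a difference of 0.060 ± 0.073 (SE) with overlap. Rpl38, known for transcript-selective translation in the embryo, and Rpl39, at the exit tunnel, were at 0.0030 ± 0.068 and -0.0021 ± 0.079 (SE).

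The stalk proteins recruit the elongation factors to the ribosome. Rplp0 was 0.0038, -0.041 and 0 in Batf+/+ and -0.011, -0.029 and -0.016 in Batf-/-, a difference of -0.0063 ± 0.069 (SE). Rplp2 was 0.023, -0.013 and 0 in Batf+/+ and -0.0043, -0.00060 and 0.0024 in Batf-/-, a difference of -0.0042 ± 0.068 (SE). For both, the Batf-/- arrays lay within the span of the Batf+/+ arrays.

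The 6 paralogs and relatives were a different case, with 2 of 6 above 0, a median difference of -0.028 and a median SD between arrays of a genotype of 0.21, against 0.036 and 0.038 in the small and large subunit genes. Rps4l had the lowest difference of all members, -0.21 ± 0.23 (SE), and it rested on 1 array: Batf+/+ was -0.062, 0 and 0.92 and Batf-/- was 0.14, -0.015 and 0.11. Without the third Batf+/+ array the difference was 0.11. Rpl39l, the relative of Rpl39 known from the testis, was 0.25, -0.38 and 0 in Batf+/+ and 0.058, -0.11 and -0.63 in Batf-/-, a difference of -0.18 ± 0.20 (SE) that was 0.020 without the third Batf-/- array. Rpl3l was 0.017, -0.40 and 0 in Batf+/+ and -0.095, -0.24 and 0.34 in Batf-/-, a difference of 0.13 ± 0.16 (SE) that was -0.039 without the third Batf-/- array. In each of these 3 genes the spread between arrays was larger than the difference.

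Rpl22l1 had the least scatter among the paralogs. This close relative of Rpl22, which Rpl22 is known to repress, was 0.0059, 0 and -0.0032 in Batf+/+ and -0.014, -0.038 and -0.0027 in Batf-/-, a difference of -0.019 ± 0.068 (SE) with overlap. Its SD of 0.013 was among the low ones of the group. Rps27l, the p53-responsive relative of Rps27, was 0, -0.064 and 0.24 in Batf+/+ and -0.11, -0.0062 and 0.17 in Batf-/-, a difference of -0.037 ± 0.11 (SE). The arrays numbered 3 were the highest of each genotype. Rps19bp1, the admitted gene that is no ribosomal protein, had a difference of -0.024 ± 0.080 (SE).

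Many members scattered little between replicate arrays, but not all. The median SD between arrays of a genotype was 0.038 over the 49 genes and 0.11 over all genes, and 3.25% of all genes lay at or below the members' median. The SD was at most 0.05 in 28 of 49 members (57.1%) against 7.54% of all genes. The absolute difference between genotypes was at most 0.05 in 30 of 49 (61.2%) against 39.6%. The median SD of the paralogs, 0.21 as given above, lay on the other side of the all-gene value. Not every paralog did: Rpl22l1 (0.013) and Rpl7l1 (0.055) lay below it. Since levels are not kept, it was not tested whether other genes of like abundance scatter as little.

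The small scatter went with the kind of probe set. Suffixes in the probe set name mark sets whose probes match several transcripts of a gene, or several genes or pseudogenes. Of the 104 ribosomal protein probe sets, 71 had such a suffix, and their median SD was 0.026, with 54 (76.1%) at or below 0.05, where 8.43% of all 8955 probe sets with a suffix were. The 33 without a suffix had a median SD of 0.11 and 4 (12.1%) at or below 0.05, where 4.61% of all 36082 such probe sets were. The median absolute difference between genotypes was 0.020 with a suffix and 0.088 without. These kinds of suffix were counted together. Where the suffix marks a match to several genes or pseudogenes, their signal cannot be told from that of the named gene.

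**Figure D3:**
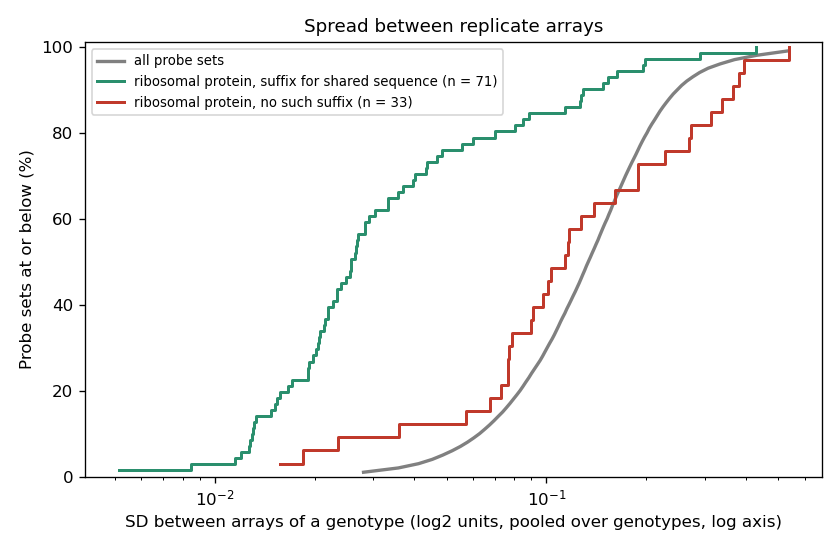
Cumulative share of probe sets (y axis, %) by the SD between arrays of a genotype (x axis, log2 units, log axis), for the 71 ribosomal protein probe sets with a suffix for shared sequence, the 33 without, and all probe sets. The curve of the 71 lies to the left, with a median SD of 0.026, and that of the 33 runs near the curve of all probe sets.

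Another 110 probe sets carried a ribosomal protein symbol together with other gene symbols and were left out by the rule. They name 31 further ribosomal protein genes, and 15 of the 49 members as well. By limma, 0 of them were called and 1 had an unadjusted p under 0.05 (adjusted p = 0.701), against 0.531% and 6.3% of all probe sets. Their median difference was 0.018, 81 of 110 lay above 0, the range was -0.063 to 0.23 and the median SD was 0.038. Their median SE was 0.077, so the limit given above for members of low scatter holds here too. The 104 probe sets of the members had a median difference of 0.021, 75 above 0, a range of -0.21 to 0.28 and a median SD of 0.038. Rplp1, Rpl3, Rpl5 and Rpl10 were not measured by a probe set of their own.

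A minority of probe sets scattered widely, and those of several genes did so in 1 pattern. Of the 104, 11 had an SD above 0.2, and they belong to Rpl27a, Rpl39l, Rpl3l, Rpl41 (2 probe sets), Rps20 (2), Rps24 (2), Rps4l and Rps9. These were chosen after their values were seen. The first Rps20 probe set was 0, 0.13 and -0.56 in Batf+/+ and 0.49, 0.17 and -0.24 in Batf-/-. The second was 0.11, 0 and -0.63 in Batf+/+ and 0.46, 0.20 and -0.42 in Batf-/-. Both were low on the arrays numbered 3 of either genotype and high on the first Batf-/- array, while the remaining 2 Rps20 probe sets differed between genotypes by 0.013 and 0.022.

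The wide Rps9 probe set was 0, 0.026 and -0.42 in Batf+/+ and 0.56, 0.13 and -0.39 in Batf-/-, the same order of arrays. One Rps24 probe set was 0, 0.050 and -1.01 in Batf+/+ and 0.20, -0.18 and -0.74 in Batf-/-, again lowest on the arrays numbered 3. A second Rps24 probe set ran the other way, at 0, -0.16 and 0.17 in Batf+/+ and -0.38, -0.14 and 0.29 in Batf-/-. Probe sets of the same genes thus gave different readings of the same RNA.

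The spiked controls of the arrays were set beside these values. The 24 poly-A control probe sets, RNA added to the sample before labelling, had means of 0.014, 0.17 and -0.36 in Batf+/+ and 0.12, -0.048 and -0.63 in Batf-/-, lowest on the arrays numbered 3. The 18 hybridisation control probe sets had means of -0.19, 0 and 0.42 in Batf+/+ and 0.0061, -0.15 and 0.35 in Batf-/-, highest on the same arrays. Their part in the values of Rps20, Rps9, Rps24 and Rpl41 was not tested. Fitted with the array number as a block, the 2 wide Rps20 probe sets had unadjusted p values of 0.0320 (the first) and 0.0156 (the second) by limma, with same-number differences of 0.49, 0.041 and 0.33 for the first and 0.36, 0.20 and 0.20 for the second. Neither passed adjustment over all probe sets (0.429 and 0.333). They were the only 2 of 104 member probe sets with an unadjusted p under 0.05 in that fit, against 10.3% of all probe sets.

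**Figure D4:**
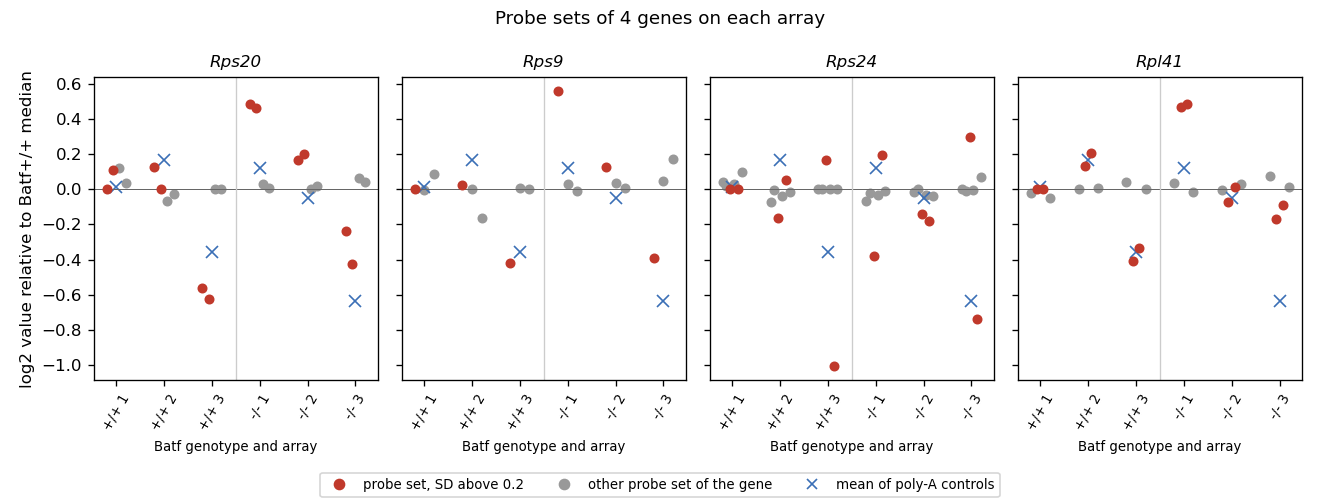
Values (y axis, log2 relative to the middle Batf+/+ array) of the probe sets of Rps20, Rps9, Rps24 and Rpl41 on each array (x axis), with those of an SD above 0.2 in red, the others of the gene in grey, and the mean of the poly-A controls as crosses. On the arrays numbered 3 the red points of Rps20 and Rps9 lie between -0.63 and -0.24, while the grey points stay nearer to 0.

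Over all 49 members the arrays differed little. The median of the members was 0.015, 0.0065 and 0.011 on the 3 Batf-/- arrays, where the median of all genes was -0.029, 0.019 and 0.022. On the Batf+/+ arrays both were 0 each time, where the centring on these arrays pulls medians to 0. The small subunit medians were 0, 0.00058 and 0 on the Batf+/+ arrays and 0.0094, 0.011 and 0.011 on the Batf-/- arrays. The large subunit medians were -0.014, 0 and 0.012 on the Batf+/+ arrays and 0.033, 0.011 and 0.027 on the Batf-/- arrays, so the second Batf-/- array lay within the Batf+/+ span.

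The other genes of protein synthesis were counted from lists of textbook members. None of the 33 measured initiation factors was called, and 20 lay above 0, with a median of 0.018. Eif1a, which helps the small subunit to scan, had the smallest p of that list, at 0.16 ± 0.077 (SE) and an adjusted p of 0.749 by limma. Of 15 elongation and termination factors 0 were called, 11 lay above 0 and the median was 0.046, with Etf1, the release factor that reads the stop codons, at 0.17 ± 0.077 (SE), adjusted p = 0.661 by limma. Of 81 ribosome biogenesis factors 0 were called, 62 lay above 0 and the median was 0.046, and Bysl, needed to mature the small subunit, was at 0.18 ± 0.087 (SE), adjusted p = 0.714 by limma. In these 3 lists 0 genes had an unadjusted p under 0.05 by limma, where 7.69% of all genes did. Of all genes 1.14% were called, a share at which lists of this size would hold few called genes or none, and 51.8% lay above 0.

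Of 76 mitochondrial ribosomal protein genes, whose products build the separate ribosome of that organelle, 0 were called, 3 had an unadjusted p under 0.05 by limma (all genes 1.14% and 7.69%), and 41 lay above 0 (median 0.0074). Mrps6 had the smallest p of the 3 (with Mrpl45 and Mrpl32), at -0.35 ± 0.074 (SE) and an adjusted p of 0.0755 by limma. Of the cytosolic ribosomal proteins with other symbols, Rpsa (a small subunit protein also called the laminin receptor) was at -0.029 ± 0.071 (SE). Fau, which encodes the small subunit protein S30 as part of a fusion protein, was at 0.011 ± 0.069 (SE). Rack1 was not measured by a probe set of its own.

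Among 28 regulators of ribosomal protein synthesis 1 was called, Larp1b, which was lower in Batf-/- (5 had an unadjusted p under 0.05, and the median was -0.025), where 0.83% of all genes were called lower and 7.69% passed unadjusted. The other genes at that threshold, named after their values were seen, were Sesn1 (0.29), Mlxip (0.32), Tsc2 (-0.28) and Mxd4 (-0.22). Larp1b, the less studied relative of Larp1, was -0.074, 0.083 and 0 in Batf+/+ and -0.50, -0.44 and -0.46 in Batf-/-, a difference of -0.47 ± 0.075 (SE), adjusted p = 0.0204 by limma. The groups did not overlap, but the call rests on 1 of 2 probe sets: one was at -0.97 (adjusted p = 0.00302 by limma) and the other at 0.029. The call was also lost under quantile normalization (difference -0.39, adjusted p = 0.186 by limma) and when any 1 array was left out, where the difference was -0.51 to -0.43 and the adjusted p 0.0510 to 0.116. Larp1 itself, known to bind 5' terminal oligopyrimidine tracts, was at 0.17 ± 0.083 (SE). Mtor was at 0.071 ± 0.079 (SE) and Myc, a known activator of ribosomal protein transcription, at 0.14 ± 0.090 (SE). None of these 3 passed (adjusted p = 0.750, 0.999 and 0.903 by limma).

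**Figure D5:**
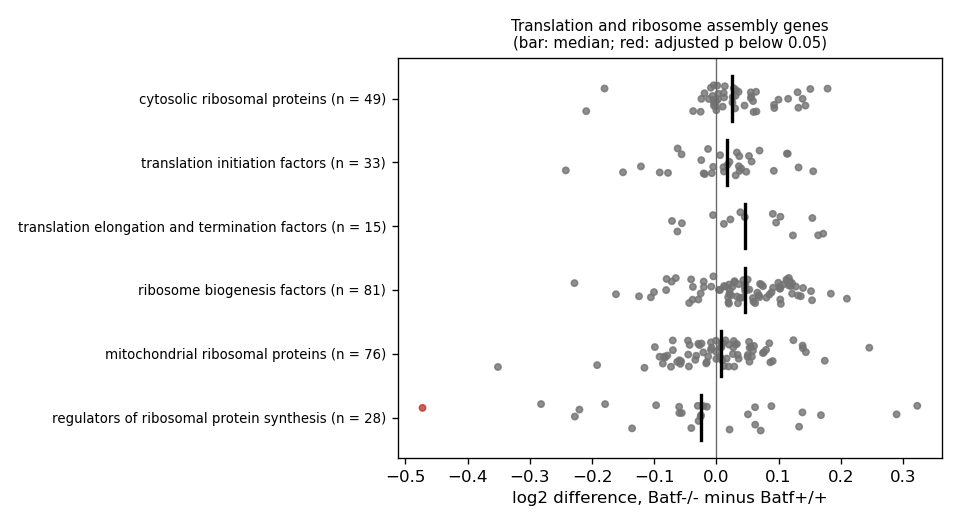
Difference between genotypes (x axis, log2, Batf-/- minus Batf+/+) of each gene (points) in the ribosomal protein group and in 5 lists of related genes, with the median of each list as a bar and the 1 called gene, Larp1b, in red. The medians lie between -0.025 and 0.046, and the ribosomal protein genes span -0.21 to 0.18.

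Markers of other cells that a CD4+ hCD2+ preparation could hold were counted in the same limma fit, and 0 were called in any list (1.14% of all genes). An unadjusted p under 0.05, which 7.69% of all genes had, was found in 1 of 7 B cell markers (Cd22), 2 of 5 plasma cell markers (Mzb1 and Tnfrsf17), 1 of 6 dendritic cell markers (Xcr1) and 1 of 6 NK cell markers (Eomes), which are named after their values were seen. It was found in 0 of 11 myeloid, 0 of 3 CD8 T cell and 0 of 4 red cell markers. With centred values it cannot be said whether a marker is at 0. The array medians on the Batf-/- arrays were 0.093, 0.057 and 0.34 for the B cell markers, 0.093, 0.022 and 0.13 for the plasma cell markers and -0.24, 0.025 and 0.22 for the myeloid markers. By gene, the median difference was -0.0035 for the B cell markers, with 3 of 7 above 0 and a range of -0.014 to 0.90. It was 0.11 for plasma cell (3 of 5 above 0), 0.043 for myeloid (6 of 11) and 0.12 for dendritic cell markers (4 of 6). For NK cell, CD8 T cell and red cell markers it was -0.015 (2 of 6), 0.0068 (2 of 3) and 0.071 (3 of 4). The ranges were -0.13 to 0.34 for plasma cell, -0.18 to 0.15 for myeloid and -0.11 to 0.27 for dendritic cell markers. They were -0.18 to 0.41, -0.19 to 0.038 and -0.21 to 0.19 for NK cell, CD8 T cell and red cell markers. Of the 8 markers of Treg and CD4 T cells, 0 were called by limma and 3 had an unadjusted p under 0.05 (Ikzf2, Tnfrsf18 and Il2ra), with 2 above 0 and a median difference of -0.14. Their differences ran from -0.51 to 0.21. Their array medians were 0.0034, 0 and 0 on the Batf+/+ arrays and -0.14, -0.18 and -0.11 on the Batf-/- arrays. Centring on the middle Batf+/+ value holds the Batf+/+ medians near 0, so the lack of overlap of these medians says little. The part of these markers in the values of the ribosomal protein genes was not tested.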

How the data were processed

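Treg RNA was measured on 6 arrays, 3 per genotype. The authors used RMA to make the deposited log2 values, as the submitters' processing notes name it; these give neither version nor log base, so base 2 is assumed here. In all 45101 probe sets the middle Batf+/+ value is exactly 0, so values are relative to that median; no filter on low values was possible. Signal over background is unknown, and the number of arrays limits the precision.

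Gene names come from the platform annotation, and a gene is the mean of its probe sets. Genotypes were compared with limma 3.58.1 in R 4.3.3 (lmFit, eBayes; tested on simulated data), adjusted over 18193 genes, or over 45037 non-control probe sets. Same-numbered arrays deviated together (correlations 0.41, 0.15 and 0.41), so the numbers were taken to pair them, from the values alone. No label says what the number shares, and the main fit, with genotype only, does not use this pairing. Alternatives were a replicate block, array weights, other scaling or summaries, and leaving out probe sets or arrays.

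The members and lists were chosen with earlier results of these data known. Named genes are Batf, any called member, the 6 highest and 6 lowest differences, 21 ribosomal protein genes picked for their known roles, the gene with the smallest p (or called) of each related list, Myc, Mtor, Larp1, Rpsa, Fau and Rack1; 1 further gene of the rule is not reported here. Rpl35, Rps9, Rps24 and the SD of Rpl7l1 were picked after their values were seen. Sequences are RefSeq's (GRCm38.p6).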

Additional observations from a re-analysis of the deposited data

How the results depend on the processing

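The count of called ribosomal protein genes was 0 in each direction under every alternative run, at the level of genes and of probe sets. With the replicate block it was 0, with a median of 0.026, 65.3% above 0 and a smallest adjusted p of 0.398 by limma, so the block changed no call of a member. At an unadjusted p under 0.05 by limma, 1 of 49 members, Rps6, passed with array weights, against 10.4% of all genes. Likewise 1 member, Rpl27a, passed without the first Batf-/- array (10.3% of all genes) and 1, Rps25, without the third (7.46%). The median difference of 0.026 stayed above 0: it was 0.016 with array weights, 0.021 with equal array medians, 0.015 with the median of probe sets, 0.012 with quantile normalization, 0.058 without probe sets of shared sequence (26 genes), 0.020 with probe sets of several genes added (chosen after seeing the data), and 0.013 to 0.031 without 1 array. The median of all genes moved as well, to 0.021 without the first Batf-/- array, above the members' 0.015. The share above 0 was 77.6% with array weights, 73.1% without shared sequence and 59.2% to 75.5% without 1 array. The 1 called gene of the related lists, Larp1b, was lost under quantile normalization (0 called) and when leaving out any array (0 to 0). Of 36 named genes, up to 8 changed sign under a setting, with no call on either side. The cause of these shifts was not tested.

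Over all genes, 208 were called, against 293 with the replicate block, 277 with array weights, 80 with quantile normalization, 109 without the first Batf+/+ array, 105 without the second, and 141 to 192 without any other array. A filter on low values was not run, since centred values keep no level, and signal over background is therefore unknown for every member. With 3 arrays a genotype, the median SE of a member was 0.071.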

Other observations

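The 3 probe sets for 18S ribosomal RNA, the RNA of the small subunit, belong to the array's controls and to no comparison above. Their mean was -0.74, 0.15 and 0 on the Batf+/+ arrays and 0.15, -0.28 and -0.060 on the Batf-/- arrays, so the first Batf+/+ array was the lowest. Labelling for 3' expression arrays commonly primes on poly-A tails, which ribosomal RNA lacks. What these values reflect was not tested.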
